A study of Homo sapiens with 24 samples.

Results

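The interferon regulatory factor (IRF) genes IRF1, IRF2, IRF3, IRF4, IRF5, IRF7, IRF8 and IRF9 were followed through an ATAC-seq time course of CDK9 inhibition (CDK9i), an assay in which a transposase cuts and tags the DNA it can reach. OCI-LY3 and VAL, both established human diffuse large B-cell lymphoma (DLBCL) lines, were exposed to the CDK9 inhibitor AZD4573 at 30 nM for 0, 3 or 8 h, and each treated time was compared with 0 h of the same line. The labels give 24 libraries, 4 in each of 6 conditions, of which 2 were made with a standard protocol on 50000 cells and 2 with Fast-ATAC on 5000 cells, whereas the extraction text gives 50000 cells for Fast-ATAC. The lists name the control DMSO where the labels give 0 h. Each line stands for DLBCL through a single cell line grown in culture, and both treated times of a line were set against a common group of 0 h libraries. What was available for each comparison was the hg19 coordinates of the regions the authors called increased or decreased in accessibility, with no value per library. A region is therefore described here by the comparisons in which it was called, no spread between libraries or size of change can be attached to it, and a region that was not called is not shown to be unaltered. In a bulk assay, a change in every cell and a change in part of the cells cannot be told apart.

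A region belonged to an IRF gene when its nearest edge lay within 50 kb of a transcription start site (TSS) of that gene or when it overlapped the gene. This rule found 32 of the 26369 distinct regions in the 8 lists, and each of the 32 belonged to a single IRF gene. Within 1 kb of a TSS a region was taken as a promoter region, which held for 3 of the 32, and the other 29 were distal. Of the 32 regions, 24 (75%) were called increased, 8 (25%) were called decreased, and 0 changed direction between comparisons. Among all 26369 regions, 51.2% were only increased, 48.1% only decreased and 0.736% changed direction. At that last share, 0 of 32 does not set the IRF regions apart.

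IRF proteins share an amino-terminal DNA-binding domain that recognises repeats of GAAA, as found in interferon-stimulated response elements. IRF3, IRF5 and IRF7 are activated by phosphorylation downstream of nucleic acid sensors and Toll-like receptors, and drive interferon and cytokine genes. IRF9 acts downstream of the interferon receptors, IRF1 is an interferon-induced activator and IRF2 competes with it for the same sites. IRF4 and IRF8 act mainly within the immune system, bind DNA with partners such as PU.1, SPIB and the AP-1 factor BATF, and set germinal centre and plasma cell programmes in B cells.

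The sequences of the regions at the IRF genes were searched for the IRF motif GAAANNGAAA, where N is any base, on both strands, with overlapping matches allowed. It was present in 7 of the 32 regions (21.9%), against 19.6% of all 26369 regions. Every match is printed below as a record of sequence, since the share was close to that of all regions. None of the regions printed under IRF9 had IRF9 as its nearest gene. All are from the forward strand of GRCh37, the sequence of hg19, and capitals mark the motif, which reads TTTCNNTTTC where it lies on the reverse strand. At IRF9 the last site is a second match in the region of the site above it. Where annotated exons adjoin, a shorter stretch is given.
IRF2, exon 5 region, chr4:185338466-185338525: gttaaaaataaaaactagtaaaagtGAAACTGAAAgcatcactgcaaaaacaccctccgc
IRF4, downstream region, chr6:434335-434394: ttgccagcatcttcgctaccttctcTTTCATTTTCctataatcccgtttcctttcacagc
IRF5, upstream region, chr7:128573251-128573310: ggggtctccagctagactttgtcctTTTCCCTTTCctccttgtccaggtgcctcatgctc
IRF8, downstream region, chr16:85981402-85981461: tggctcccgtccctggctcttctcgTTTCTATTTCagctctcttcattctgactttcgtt
IRF9, region over DCAF11, chr14:24591691-24591750: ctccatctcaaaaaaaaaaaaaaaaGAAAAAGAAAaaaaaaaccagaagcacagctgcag
IRF9, region at the PSME1 TSS, chr14:24605398-24605427: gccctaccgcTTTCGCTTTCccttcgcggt
IRF9, region at the PSME2 TSS, chr14:24615828-24615857: tcgcccgggcTTTCGCTTTCactccccagg
IRF9, region at the PSME2 TSS, chr14:24616424-24616453: ggtccagctaGAAAAAGAAAggttttgagc

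The first 3 of these sites lay in regions called decreased and the others in regions called increased, so that the motif was present in 3 of the 8 decreased (37.5%) and 4 of the 24 increased (16.7%) IRF regions. Among all regions the shares were 27% of those only ever decreased and 12.6% of those only ever increased. In the 200 bp around the midpoint, the motif was present in 2 of the 32 regions (6.25%), those at PSME1 and at PSME2, against 3.73% of all regions. The DCAF11 match lay in a run of A bases. The composite ETS-IRF motif GGAANNGAAA, the joint site of IRF4 or IRF8 with PU.1 or SPIB, was present in 0 of the 32 regions over their whole length and in 15.4% of all regions, and the CTCF motif CCACNAGNNGGC in 0 of 32 against 5.51%. These are matches of letters in a window and carry no information on binding.

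The AP-1 motif TGANTCA, which AP-1 proteins such as BATF with JUNB read, was present in 6 of the 32 IRF regions (18.8%) against 30.7% of all regions. By direction it was present in 3 of the 8 decreased regions (37.5%) against 37.4% of all decreased regions, and in 3 of the 24 increased regions (12.5%) against 24.4% of all increased regions. The 3 decreased regions with the motif were all at IRF2. In the IRF2 exon 5 region it occurred 3 times within the stretch shown, and in the IRF8 exon 3 region the single match lay 19 bp from the midpoint. Capitals mark AP-1.
IRF2, exon 5 region, chr4:185339231-185339319: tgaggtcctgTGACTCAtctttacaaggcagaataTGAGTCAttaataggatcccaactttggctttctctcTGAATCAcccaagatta
IRF8, exon 3 region, chr16:85942343-85942369: gttcgacttcTGACTCAgctgtatgaa
The NFkB motif GGGANTTNCC was present in 3 of the 32 regions (9.38%), at IRF4, IRF5 and IRF9, all called increased, against 6.17% of all regions.

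Counted by comparison, OCI-LY3 had 6 increased and 2 decreased IRF regions at 3 h and 15 increased and 3 decreased at 8 h. VAL had 7 increased and 4 decreased at 3 h and 18 increased and 6 decreased at 8 h. Increased regions thus made up 75% and 83.3% of the IRF regions called in OCI-LY3 (3 h and 8 h), and 63.6% and 75% in VAL. Over all called regions the shares were 52.5% and 55.8% in OCI-LY3, and 66.5% and 54.6% in VAL. With 8 to 24 IRF regions called in a comparison, a single region moves these shares by several points. The nearest protein-coding TSS belonged to an IRF gene for 21 of the 32 regions, and these comprised 13 increased and all 8 decreased regions. The other 11 regions were all increased, and 7 of them overlapped the TSS of another gene. Among regions whose nearest TSS was that of an IRF gene, the increased share was 60% and 66.7% in OCI-LY3 (3 h and 8 h), and 50% and 64.7% in VAL.

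**Figure D1:**
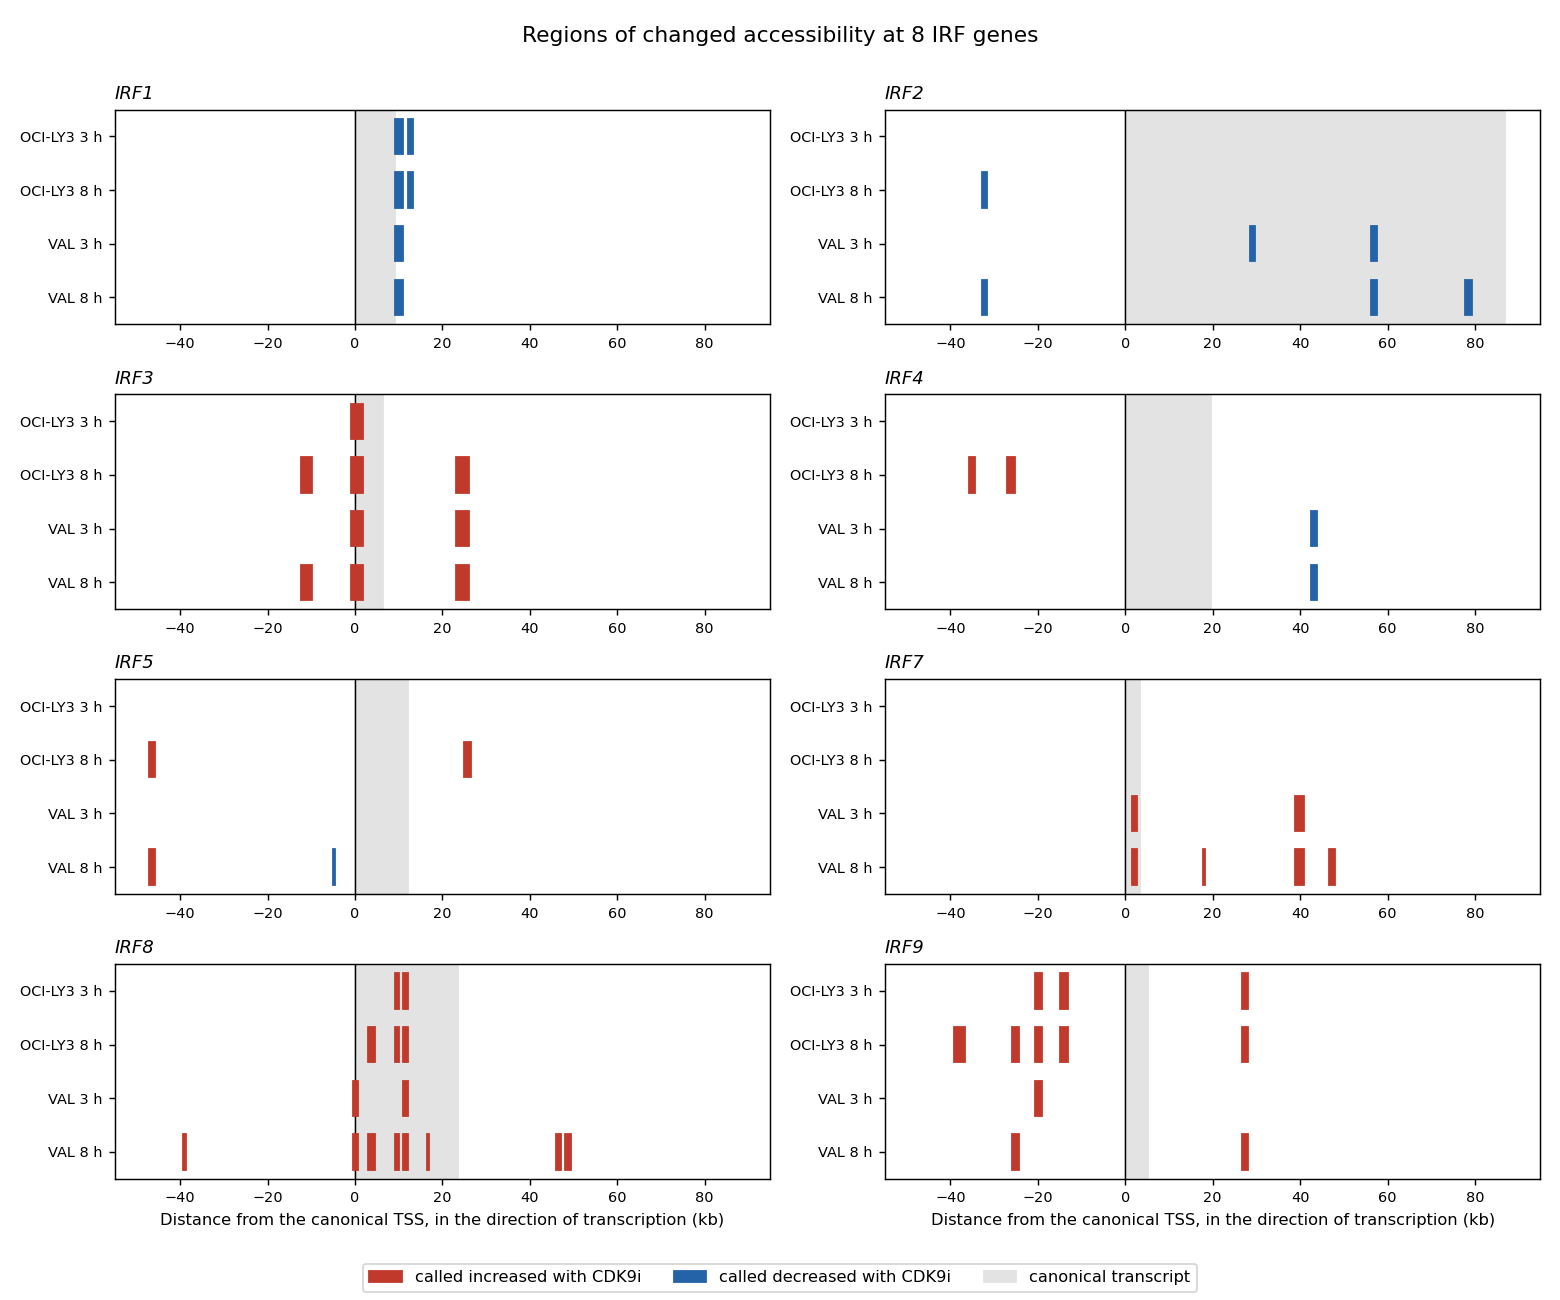
Position of the 32 regions at the 8 IRF genes. The horizontal axis is the distance in kb from the canonical TSS in the direction of transcription, the rows are the 4 comparisons with 0 h, red and blue boxes are regions called increased and decreased, and the grey band is the canonical transcript. IRF1 and IRF2 carry only blue boxes, IRF3, IRF7, IRF8 and IRF9 only red ones, and no box lies on the canonical transcript of IRF9.

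Set beside 20162 protein-coding genes read by the same rule, the IRF genes were counted for increased and for decreased regions of any kind, promoter or distal. In OCI-LY3 (3 h), 3 of the 8 genes had an increased region (IRF3, IRF8 and IRF9) against 19.7% of coding genes, and 1 of 8 had a decreased region (IRF1) against 9.99%. In OCI-LY3 (8 h), 5 of 8 had an increased region (IRF3, IRF4, IRF5, IRF8 and IRF9) against 31.1%, and 2 of 8 a decreased region (IRF1 and IRF2) against 13.8%. In VAL (3 h), 4 of 8 had an increased region (IRF3, IRF7, IRF8 and IRF9) against 27.0%, and 3 of 8 a decreased region (IRF1, IRF2 and IRF4) against 8.13%. In VAL (8 h), 5 of 8 had an increased region (IRF3, IRF5, IRF7, IRF8 and IRF9) against 48.3%, and 4 of 8 a decreased region (IRF1, IRF2, IRF4 and IRF5) against 21.3%. The member shares lay above the background in each of the 8 lists, by the least in OCI-LY3 decreased regions at 3 h, and with 8 genes a single gene is 12.5 points. The 8 lists are not independent, because the times of a line share 0 h libraries and the same regions recur between lists. IRF9 counted in every increased list, although for 0 of its 5 regions was it the nearest gene. Gene length and the number of neighbouring genes were not matched between the IRF genes and the background.

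Promoter regions were called at IRF3 and IRF8 alone, 2 of the 8 genes, whereas 32.4% of coding genes had a promoter region called in any list. In OCI-LY3 (3 h), 1 of 8 promoters was increased against 5.92% of coding genes. The count was 2 of 8 against 9.30% in OCI-LY3 (8 h), 2 of 8 against 10.3% in VAL (3 h) and 2 of 8 against 25.1% in VAL (8 h). Decreased promoters numbered 0 of 8 in each comparison, against backgrounds of 0.694% and 1.28% in OCI-LY3 (3 h and 8 h), and 0.322% and 3.38% in VAL. At these backgrounds 8 genes cannot show fewer decreased promoters than other genes.

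**Figure D2:**
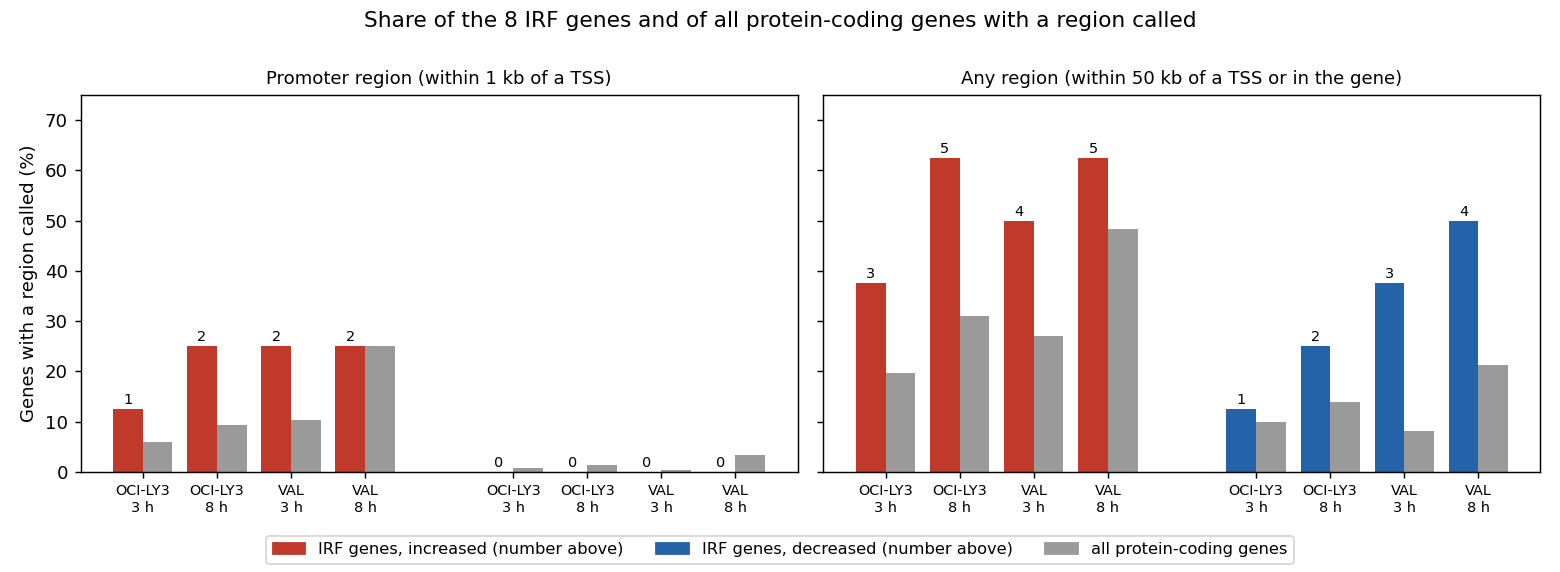
Share of genes with a called region, in percent, for promoter regions (left) and for any region within 50 kb or in the gene (right). Red and blue bars are the 8 IRF genes for increased and decreased regions with the number of genes above each bar, and grey bars are the 20162 protein-coding genes. At promoters of VAL (8 h) the IRF bar (2 of 8) and the grey bar (25.1%) are level, while decreased regions of any kind reach 4 of 8 against 21.3%.

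Sharing between lines and times was described over the same 32 regions. The number called in both lines in the same direction was 12 (37.5%), against 14.8% of all regions. A further 6 (18.8%) were called in OCI-LY3 alone and 14 (43.8%) in VAL alone, against 19.5% and 65% of all regions. Of the 32, 3 (9.38%) were called in all 4 comparisons against 2.95% of all regions: a decreased region at IRF1 and increased regions at IRF3 and IRF8. At 8 h but not 3 h 17 regions (53.1%) were called, against 70.3% of all regions, and at 3 h alone 1 region (3.12%), in intron 1 of IRF2, against 6.39%.

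Of the genes that act downstream of sensors, IRF3 (ENSG00000126456, chr19:50162826-50169132, minus strand) was the only one with a promoter region called. The region chr19:50167359-50169933, 2575 bp long and covering exons 1 and 2, was increased in all 4 comparisons. It also overlapped the TSS of BCL2L12, the neighbouring gene, so the region cannot be credited to IRF3 alone. A promoter increased in all 4 comparisons was found for 573 of the coding genes (2.84%). The other 2 regions of IRF3 lay at the TSS of other genes. The region chr19:50143154-50145988, at RRAS and SCAF1, was increased in OCI-LY3 (8 h) and in VAL at both times. The region chr19:50179080-50181570, at PRMT1, an arginine methyltransferase gene, was increased at 8 h in both lines. The surroundings moved the same way: of the other regions within 1 Mb, 47 were increased and 0 decreased in OCI-LY3 (8 h), and 82 and 0 in VAL. Over the whole of chromosome 19 the increased share was 98.7% and 99.4%.

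IRF7 (ENSG00000185507, chr11:612553-615983, minus strand), the inducible amplifier of type I interferon, was called in VAL alone and always increased. Its region chr11:613317-614340 covered exons 6 to 9, was 1388 bp from the nearest TSS and was called at 3 h and 8 h. The region chr11:575133-577132 overlapped the TSS of PHRF1 and was also called at both times. The regions chr11:567908-569264, over MIR210HG, and chr11:597612-598092, over PHRF1, were called at 8 h only. In OCI-LY3 no region of IRF7 was called. The other regions within 1 Mb were 51 increased and 0 decreased in VAL (8 h), and 9 and 1 in OCI-LY3, against 55.4% and 65.1% increased over the chromosome.

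IRF5 (ENSG00000128604, chr7:128577511-128590092, plus strand) had no called region on its transcript. The region chr7:128530863-128532191, over KCP and 45475 bp from the nearest IRF5 TSS, was increased at 8 h in both lines. The region chr7:128602796-128604451, over TNPO3, was increased in OCI-LY3 (8 h). Nearest to the gene was chr7:128572844-128573411, a 568 bp region 4255 bp from the TSS that was decreased in VAL (8 h) and that holds the IRF motif shown above. IRF5 and IRF4 were the genes with regions in both directions. Around IRF5 the other regions were also mixed, 5 increased and 7 decreased in OCI-LY3 (8 h) and 6 and 6 in VAL.

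IRF8 (ENSG00000140968, chr16:85932722-85956212, plus strand), which maintains germinal centre B cells, had 8 regions, the most of the 8 genes. All 8 were increased, and for all 8 the nearest coding TSS was that of IRF8. Within the gene the pattern differed by line. The region over the canonical TSS and exon 1, chr16:85932314-85933475, was increased in VAL (3 h and 8 h) and was not called in OCI-LY3. The region chr16:85935639-85937423, over exon 2 and an internal TSS, was increased at 8 h in both lines. The region chr16:85941900-85942851, over exon 3, was increased in OCI-LY3 (3 h and 8 h) and in VAL (8 h). The region chr16:85943741-85944975, in intron 3 of the canonical transcript, was increased in all 4 comparisons. The promoter call of IRF8 in OCI-LY3 thus rested on the internal TSS, whereas that in VAL (3 h) rested on the canonical TSS. Its pattern of promoter calls, increased in all comparisons but OCI-LY3 (3 h), was found for 428 coding genes (2.12%). With the TSS of all annotated transcripts the exon 3 region became a promoter region too, which gives IRF8 a promoter call in OCI-LY3 (3 h) as well.

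The other 4 IRF8 regions were called in VAL (8 h) alone. They were chr16:85949240-85949749 in intron 6, chr16:85893412-85894072 at 38696 bp upstream of the TSS, and the pair chr16:85978669-85979858 and chr16:85980913-85982183, which started 22457 and 24701 bp beyond the end of the transcript. IRF8 had 3 of its regions called in OCI-LY3 (8 h) and all 8 in VAL (8 h), where the lists of increased regions held 4367 and 11121 regions in all. As at IRF3, the surroundings were increased too: the other regions within 1 Mb were 10 increased and 0 decreased in OCI-LY3 (8 h) and 52 and 0 in VAL, and chromosome 16 was 93.6% and 96.9% increased. The part of the surroundings in the results was not tested for any of the 8 genes.

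IRF4 (ENSG00000137265, chr6:391739-411443, plus strand), a regulator of plasma cell differentiation, had no region called on its transcript or promoter. In OCI-LY3 (8 h), chr6:355924-357291 and chr6:364583-366399, at 34448 and 25340 bp upstream of the nearest TSS, were increased. For the former the nearest coding TSS was that of DUSP22. In VAL, chr6:434208-435575, which started 22765 bp beyond the end of the transcript, was decreased at 3 h and 8 h. Within 1 Mb the other regions were 4 increased and 0 decreased in OCI-LY3 (8 h), and 3 and 2 in VAL.

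IRF1 (ENSG00000125347, canonical transcript chr5:131817301-131826465, minus strand) had 2 regions, both decreased and both just beyond the end of that transcript, over the antisense gene IRF1-AS1. Both lay inside the annotated gene, chr5:131776132-131844411, which is longer than that transcript. The region chr5:131815567-131817266, whose edge lay 35 bp from the transcript end, was decreased in all 4 comparisons. The region chr5:131813094-131814262, at 3039 bp from the end, was decreased in OCI-LY3 (3 h and 8 h) and was not called in VAL. Neither region held a match to any of the motifs named above. Here the surroundings went the other way in OCI-LY3 (8 h), where the other regions within 1 Mb were 6 increased and 1 decreased. In VAL (8 h) they were 10 increased and 7 decreased. Chromosome 5 as a whole was 40.4% and 31.3% increased.

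IRF2 (ENSG00000168310, chr4:185306856-185395712, minus strand), which represses interferon-induced genes by occupying IRF1 sites, had 4 regions, all decreased and all nearest to IRF2. Intragenic regions were called in VAL alone. These were chr4:185338160-185339434 over exon 5 at both times, chr4:185366099-185367149 in intron 1 at 3 h, and chr4:185316305-185318089 in intron 7 at 8 h. The last lay 51822 bp from the nearest TSS and entered through its place in the gene. An upstream region, chr4:185427298-185428551, 31586 bp from the TSS and over LINC02427, was decreased at 8 h in both lines. The other regions within 1 Mb were 1 increased and 13 decreased in VAL (8 h), and 4 and 2 in OCI-LY3, and chromosome 4 was 15.8% and 25.6% increased.

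IRF9 (ENSG00000213928, chr14:24630443-24637252, plus strand) had 5 regions, all increased, and for none of them was IRF9 the nearest gene. The region chr14:24615461-24617324, the nearest to it at 13130 bp, overlapped the TSS of PSME2 and RNF31 and was increased in OCI-LY3 (3 h and 8 h). The region chr14:24604590-24606118, at the TSS of PSME1, was increased at 8 h in both lines. PSME1 and PSME2 encode the interferon-inducible subunits of the PA28 proteasome activator, and these are the regions with the GAAANNGAAA sites near their centres. The region chr14:24609904-24611328, at EMC9, was increased in OCI-LY3 at both times and in VAL (3 h). The region chr14:24657130-24658622, at IPO4, was increased in OCI-LY3 at both times and in VAL (8 h). The region chr14:24591170-24593850, over DCAF11, was increased in OCI-LY3 (8 h). The other regions within 1 Mb were 13 increased and 0 decreased in OCI-LY3 (8 h), and 7 and 4 in VAL. Chromosome 14 as a whole was 66.7% and 69.8% increased.

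**Figure D3:**
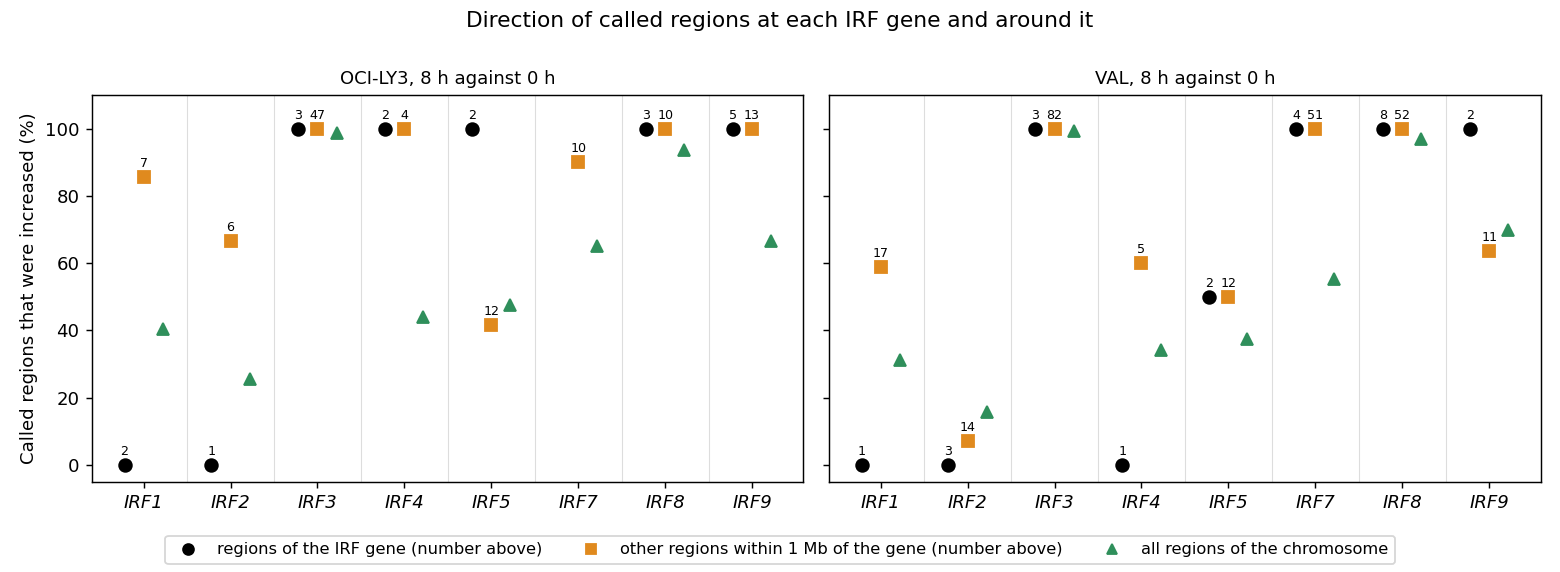
Percentage of called regions that were increased at 8 h, for each IRF gene's own regions (black circles), the other regions within 1 Mb of the gene (orange squares) and all regions of its chromosome (green triangles), with the number of regions above circles and squares. IRF3, IRF7 and IRF8 sit among regions that were nearly all increased in VAL, while the decreased regions of IRF1 sit at 0% beside 10 increased and 7 decreased others. IRF7 has no circle in OCI-LY3, where it had no region called.

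In composition, the 24 increased IRF regions had a median G+C content of 58.1% and a median width of 1396 bp, and the 8 decreased regions 49.7% and 1264 bp. Over all regions the medians were 56.2% and 1320 bp for those only increased, and 41.4% and 1300 bp for those only decreased. Both groups of IRF regions overlapped, from 36.8% to 77.6% G+C for the increased and from 41.9% to 58.8% for the decreased. The increased regions of IRF8 spanned 44.1% to 58.7% G+C, and those of IRF7 66.1% to 77.6%. Whether G+C content plays a part in the direction of the calls was not tested.

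**Figure D4:**
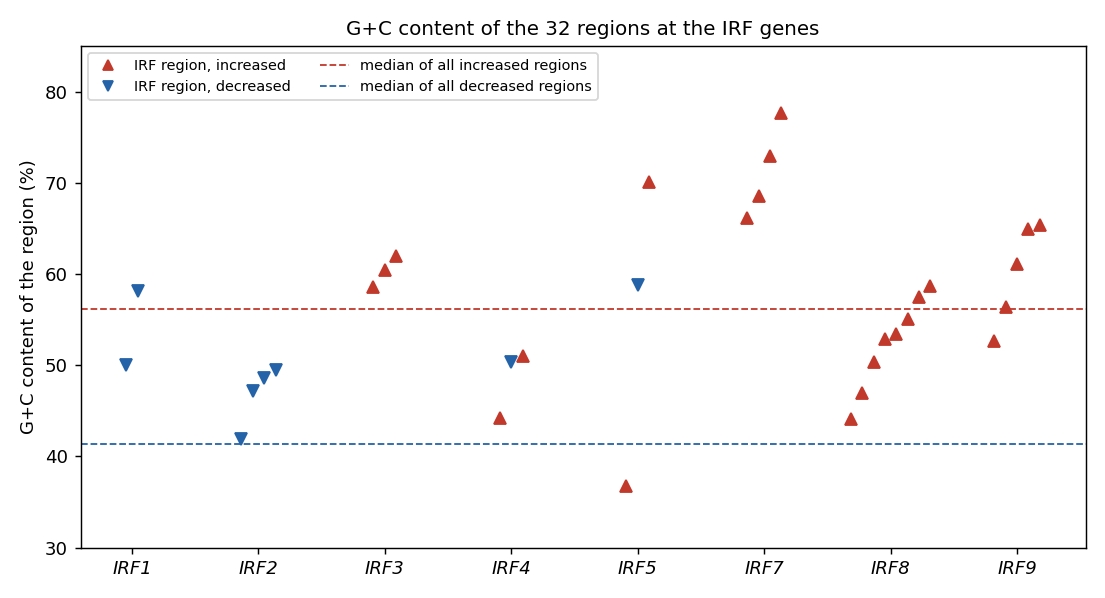
G+C content in percent of each of the 32 regions, by IRF gene. Upward red triangles were called increased and downward blue triangles decreased, and the dashed lines are the medians of all increased (56.2%) and all decreased (41.4%) regions. All 4 regions of IRF7 lie above the red line, and all 8 decreased IRF regions lie above the blue line.

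The limits of the rule fell as follows. Just inside 50 kb were a region of IRF5 at 45475 bp and a region of IRF7 at 46464 bp. Just outside were chr14:24681983-24683440, 50630 bp from IRF9 and increased in all 4 comparisons, and chr11:560163-561643, 54085 bp from IRF7 and increased in VAL (3 h and 8 h). At the 1 kb limit the promoter regions all overlapped a TSS, and the nearest ones outside were the IRF7 exon 6 to 9 region at 1388 bp and the IRF8 intron 6 region at 1591 bp.

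Genes that work with the IRF family were read at their promoters only, from 4 lists with 84 genes in all. Increased promoters numbered 8 and 14 of the 84 in OCI-LY3 (3 h and 8 h) (9.52% and 16.7%), and 16 and 31 in VAL (19% and 36.9%). Decreased promoters numbered 2 and 4 in OCI-LY3 (2.38% and 4.76%), and 0 and 3 in VAL (0% and 3.57%). The backgrounds are those given above for promoters, and no gene of the lists had promoter calls in opposite directions.

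Among 14 receptors and signal transducers of the interferon pathways, 0, 2, 2 and 9 promoters were increased in OCI-LY3 (3 h and 8 h) and in VAL (3 h and 8 h), and 0 were decreased in each. As shares of the list these were 0%, 14.3%, 14.3% and 64.3%, against 5.92%, 9.30%, 10.3% and 25.1% of coding genes. The 2 of OCI-LY3 (8 h) were SOCS1, a feedback inhibitor of JAK kinases, and TYK2, the kinase of the type I interferon receptor. The 2 of VAL (3 h) were TYK2 and IFNGR2, a chain of the interferon gamma receptor. These 3 were named after their calls were seen, and TYK2 lies on chromosome 19 and SOCS1 on chromosome 16, where nearly every call was an increase. Among 17 sensors and adaptors upstream of IRF3, IRF5 and IRF7, 3, 3, 4 and 6 promoters were increased (17.6%, 17.6%, 23.5% and 35.3%) and 0 decreased, against the same backgrounds. TLR9, the receptor for unmethylated CpG DNA, and IRAK1, a kinase downstream of it, were increased in all 4 comparisons.

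Among 19 binding partners of IRF proteins and B-cell factors, 3, 4, 6 and 7 promoters were increased (15.8%, 21.1%, 31.6% and 36.8%), against 5.92%, 9.30%, 10.3% and 25.1% of coding genes. Decreased promoters numbered 0, 1, 0 and 1 (5.26% at 8 h in either line, against 1.28% and 3.38%). SPI1, which encodes PU.1, SPIB and JUNB were increased in all 4 comparisons, and SPIB and JUNB lie on chromosome 19, where nearly every call was an increase. PRDM1, the plasma cell regulator BLIMP1, had a decreased promoter at 8 h in both lines, at 2 different regions: chr6:106439810-106441465 in OCI-LY3 and chr6:106531834-106533284 in VAL.

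Among 34 interferon-stimulated targets, 2, 5, 4 and 9 promoters were increased (5.88%, 14.7%, 11.8% and 26.5%), against 5.92%, 9.30%, 10.3% and 25.1% of coding genes. Decreased promoters numbered 2, 3, 0 and 2 (5.88%, 8.82%, 0% and 5.88%), against 0.694%, 1.28%, 0.322% and 3.38% of coding genes. TAP1 and PSMB9, the peptide transporter and the immunoproteasome subunit of antigen presentation, share the region chr6:32820668-32822758, which was increased in all 4 comparisons, so that 1 region carried the calls of both genes. A further promoter region of PSMB9, chr6:32811386-32813510, was increased in VAL (8 h) and also carried the promoter call of PSMB8. The increased promoters of the list included those of the antiviral genes ISG15 and MX1, in VAL (8 h), and BST2 and ADAR, in OCI-LY3 (8 h) and at both times in VAL. These 4 were named after their calls were seen, and BST2 lies on chromosome 19. IFIT1, at chr10:91151742-91153261, was decreased in OCI-LY3 (3 h and 8 h), and IFIT5, at chr10:91173496-91175370, in the same comparisons and in VAL (8 h). IFIT2, at chr10:91061094-91062654, was decreased in VAL (8 h), and IFI44, at chr1:79114919-79117280, in OCI-LY3 (8 h). Apart from IFI44, the decreased calls of this list thus came from neighbouring genes within chr10:91061094-91175370. The other calls around these genes were not counted.

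Over all called promoter regions of the 4 lists, the IRF motif was present in 5 of 6 decreased regions and in 13 of 36 increased regions (36.1%), against 27% and 12.6% of all regions that were only decreased and only increased. Within the interferon-stimulated targets alone it was present in 4 of 4 decreased regions, those of IFI44, IFIT1, IFIT2 and IFIT5, and in 8 of 11 increased regions (72.7%), those of ISG15, MX1, BST2 and ADAR among them. The motif was thus frequent at these promoters in both directions. Repeats of GAAA are the letters of interferon-stimulated response elements, so a high share among interferon-stimulated targets follows in part from the choice of genes. The shares of all regions also include regions away from promoters. The lists were not chosen independently of these data, so this is a description. The sites at the IFIT genes are shown with the motif in capitals, as the counterpart of those at the IRF genes. Of the several matches in each region, a single match is printed, chosen after the matches were seen.
IFIT1, chr10:91152254-91152283: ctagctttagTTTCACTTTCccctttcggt
IFIT2, chr10:91061698-91061727: cactttctagTTTCACTTTCccttttgtaa
IFIT5, chr10:91174311-91174340: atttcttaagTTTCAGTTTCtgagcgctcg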

How the data were processed

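ATAC-seq libraries of OCI-LY3 and VAL cells, 24 in all, were grouped by line, time and protocol from the sample labels. According to the methods text and the submitters' processing notes, the authors mapped reads against hg19 by Bowtie2, discarded mitochondrial, non-uniquely aligned and duplicate reads, called peaks per sample with MACS2, merged them and counted reads in the merged peaks with bedtools, and compared each treated time with 0 h using DESeq2. The methods text and a figure legend give different limits on the adjusted p. Whether reads were shifted for the transposase and whether library protocol was a model term is not stated in the sources used here. The deposited files are 8 lists of 3 columns, chromosome, start and end, with 0 columns of per-sample values, so depth is unknown, no interval or test was computed, and the protocols could not be compared.

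Regions with equal coordinates in several lists were counted once. Distances were taken from the nearest edge of a region to the TSS of transcripts tagged basic in GENCODE 44 lifted to GRCh37, for 20162 protein-coding genes on the autosomes, X and Y. Introns and exons are those of the canonical transcript. Motifs were searched as fixed letters with 0 mismatches on both strands in whole regions and in 200 bp around the midpoint, and the result of a further planned motif is not reported here. Work was done in Python 3.11.15 with pysam 0.24.0, numpy 2.4.6 and matplotlib 3.10.9, and tested on simulated regions and sequences with planted answers.

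The IRF genes and the 4 lists of related genes were chosen with earlier results of these data known. All 8 IRF genes are named with all their regions. Of the lists, genes were named when their promoter was called in the same direction in all 4 comparisons, in opposite directions in different comparisons, or, for at most 6 per list, when it was decreased in any comparison. SOCS1, TYK2, IFNGR2, ISG15, MX1, BST2 and ADAR fall outside this rule and were named after their calls were seen. PSMB8 also falls outside it and was named for a region that it shares with PSMB9. Alternatives covered distance, nearest gene, midpoint, transcript set, merging of loci, promoter width, overlap and motif settings.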

Additional observations from a re-analysis of the deposited data

How the results depend on the processing

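Files without a score or per-library value allowed no stricter calling threshold and no omission of a library. No paired analysis was possible because the lists carry no replicate values. Of 65 values recomputed under an alternative, 43 stayed within 1.5 times the reported count and 22 did not. With a distance of 20 kb, the 32 regions became 17, and the increased regions at 8 h became 7 in OCI-LY3 and 9 in VAL. With 100 kb there were 52 regions, and increased regions numbered 11 and 26 in OCI-LY3 at 3 h and 8 h, and 14 and 31 in VAL. Restricted to regions nearest to an IRF TSS there were 21, with 3 and 6 increased in OCI-LY3 and 4 and 11 in VAL. Merging regions within 10 kb gave 21 loci, with 1 decreased in OCI-LY3 at 3 h, and 9 and 11 increased at 8 h in OCI-LY3 and VAL. Promoter regions numbered 5, in place of 3, with a width of 2 kb and also 5 with all GENCODE transcripts, and both added the exon 6 to 9 region of IRF7. The former also added the IRF8 intron 6 region and the latter the IRF8 exon 3 region, which gave IRF8 a promoter call in OCI-LY3 at 3 h. The IRF motif was found in 7 whole regions (21.9%), in 4 regions with a 500 bp window (12.5%) and in 9 with 1 mismatch allowed (28.1%). The shares of all regions were 19.6%, 8.83% and 31.7%. With 1 mismatch the IRF share thus lay below that of all regions, and in the other settings above it. Decreased counts at 3 h in VAL and at 8 h, and the number of regions shared by both lines, stayed within 1.5 times under every alternative run. Each alternative changes by construction which regions are admitted, how they are joined or what is searched in them, and no other cause was tested.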
